A study of Mus musculus with 2 samples.

Results

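Acta2-high cells were the 296 cells with the highest contractile score among 5930 Pdgfra-positive fibroblasts of the library labelled sham, out of 12103 cell barcodes in the whole series. The score was the mean of the natural log of 1 plus the UMIs (unique transcript molecules) per 10000 UMIs of the cell, over Acta2, Tagln, Tpm2 and Myl9. A cell entered the ranking with at least 2000 UMIs, at most 10% mitochondrial UMIs, a Pdgfra UMI, at least 2 of Col1a1, Col1a2, Col3a1 and Dcn, and at most 1 of Pecam1, Ptprc, Epcam, Tyrobp, Umod and Rgs5. The top 5% are called Acta2-high cells, and they were set against the bottom 50%, 2965 Acta2-low cells. The same measured values chose the cells, so every difference between these groups is a description and carries no test.

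The study sorted kidney cells positive for PDGFRa and PDGFRb from FVBN mice and sequenced 2 droplet libraries (10x Chromium version 2, which reads the 3′ ends of transcripts). One library was labelled as taken 10 days after unilateral ureteral obstruction (UUO), in which the ureter is tied and the kidney scars, and the other as sham, the operation without obstruction. Kidneys of both groups were opened with the enzymes Liberase TL and DNAse and mechanical dissociation. The labels do not give the number of animals per library, and with 1 library per group nothing below has a replicate check.

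Contractile fibroblasts carry the smooth muscle actin Acta2 and its partners, which let a cell pull on surrounding matrix. In kidney, Acta2 marks both the smooth muscle and pericytes of vessel walls and the myofibroblasts that lay down scar. Many contractile genes are switched on by serum response factor with its cofactors of the myocardin family, which bind the CArG box, a short element of CC, A or T bases and GG. In myofibroblasts the contractile apparatus joins to focal adhesions and so to collagen and elastic fibres outside the cell.

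The 4 genes behind the score lie on 4 chromosomes of GRCm38. Acta2 is at chr19:34241090-34255590 on the minus strand, Tagln at chr9:45929619-45936058 on the minus strand, Tpm2 at chr4:43514711-43523765 on the minus strand and Myl9 at chr2:156775420-156781658 on the plus strand. Tagln overlaps Pcsk7 on the opposite strand. The 250 bases before the transcript start are shown for Acta2 and Myl9, because the CArG boxes found among the score genes lie there. They come from RefSeq (GRCm38.p6), read 5′ to 3′ on each gene's own strand, with the boxes in capitals. The gene positions above are from GENCODE, whose gene ends differ from the RefSeq starts, so both windows overlap those spans. The search took both strands, with CC, 6 bases that are A or T, and GG, and also counted boxes with 1 other base among the 6.
Acta2, chr19:34255374-34255623, minus strand: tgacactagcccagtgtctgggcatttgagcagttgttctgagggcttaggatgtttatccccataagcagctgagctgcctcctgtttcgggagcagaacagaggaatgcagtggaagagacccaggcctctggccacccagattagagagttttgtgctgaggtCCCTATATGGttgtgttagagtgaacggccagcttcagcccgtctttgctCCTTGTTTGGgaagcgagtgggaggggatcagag
Myl9, chr2:156775214-156775463, plus strand: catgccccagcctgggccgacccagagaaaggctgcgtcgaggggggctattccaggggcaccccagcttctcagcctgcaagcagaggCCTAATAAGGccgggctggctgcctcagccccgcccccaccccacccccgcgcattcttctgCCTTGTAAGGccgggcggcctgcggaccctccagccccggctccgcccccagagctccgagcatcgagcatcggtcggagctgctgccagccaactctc
The Acta2 promoter held boxes 84 and 34 bases before the start, each with 1 other base inside. The Myl9 promoter held an exact box 161 bases before the start and one with 1 other base at 99. Of all 32851 promoters of this length, 1.47% held an exact box and 8.59% a box with at most 1 other base. Among the score genes, 3 of 4 had an entry, 1 of them with an exact box and 2 with at most 1 other base. Tagln had no entry and was not searched. Among 21 of 25 other contractile genes with an entry, 4 held an exact box, Actc1, Cnn2 and Ldb3 among them, and 6 one with at most 1 other base. A match describes these letters and says nothing of whether the factor binds.

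The deposited values summed to 6023072 UMIs over 1291 barcodes labelled UUO and 85359332 over 10812 labelled sham, and 16 barcode sequences occurred in both libraries, 0 of them among the Acta2-high cells. The 2 libraries went partly against their labels. Among Pdgfra-positive fibroblasts Spp1 had 187 UMIs per 1000000 UMIs (CPM) in the library labelled UUO and 12349 CPM in the library labelled sham, and Timp1 61.7 and 678 CPM, although both are injury genes. Acta2 itself had 292 CPM in the library labelled UUO and 1504 CPM in the library labelled sham. C3 and Postn were higher in the library labelled UUO, at 692 and 145 CPM, against 35.0 and 76.3 CPM in the library labelled sham. The libraries are therefore named by their labels throughout, and the state of the kidney behind the Acta2-high cells is known from the label alone.

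Acta2-high cells were the upper end of a continuous distribution and no separate peak. Their scores ran from 3.22 to 4.26 with a median of 3.42, against a median of 0.939 and a highest score of 1.56 among Acta2-low cells. Within 0.1 score units of the limit there were 87 Acta2-high cells above it and 91 other cells below it. The last cell inside scored 3.22082 and the first outside 3.2208, and the tenth cells on each side scored 3.23242 inside and 3.21114 outside. Acta2-high cells were somewhat deeper, with a median of 11221 UMIs (lowest 2346, highest 35598), against 8426 (2001 and 34851) in Acta2-low cells. Mitochondrial UMIs had medians of 2.15% in Acta2-high and 2.02% in Acta2-low cells.

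**Figure D1:**
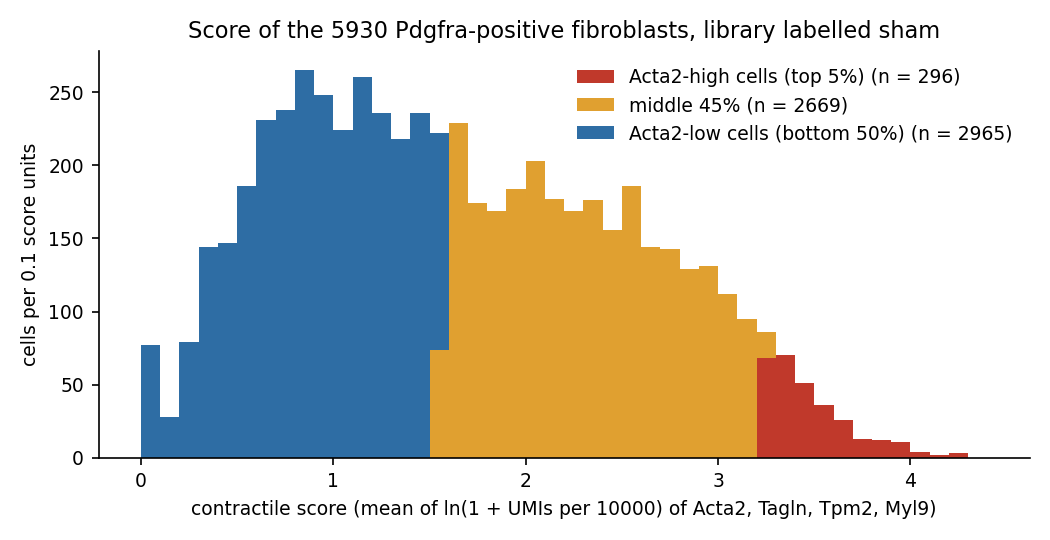
Contractile score (x axis, mean natural log of 1 plus UMIs per 10000) against cells per 0.1 score units (y axis, bars stacked) for the 5930 Pdgfra-positive fibroblasts of the library labelled sham. The 296 Acta2-high cells in red form the right tail, with no gap from the cells below the limit near 3.22.

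The 4 score genes together took a median of 1.48% of a cell's UMIs in Acta2-high cells (lowest 1.05%, highest 4.15%), against 0.0841% (0 and 0.484%) in Acta2-low cells. Acta2, smooth muscle alpha-actin, had a lowest, median and highest value of 26.3, 69.1 and 237 UMIs per 10000 in Acta2-high cells, against 0, 2.00 and 43.6 in Acta2-low cells. The ranges overlap because a cell can rank high on the other 3 genes. Summed over cells, Acta2 had 7571 CPM in Acta2-high cells and 243 CPM in Acta2-low cells, a ratio of 31.2 (95% interval 30.3 to 32.1, counting error only).

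Tagln, the actin-bundling protein transgelin, had 14.1, 43.1 and 118 UMIs per 10000 (lowest, median, highest) in Acta2-high cells, and a median of 1.87 in Acta2-low cells. Myl9, the regulatory light chain of smooth muscle myosin, had 5.23, 23.5 and 62.7 in Acta2-high cells, and a median of 1.78 in Acta2-low cells. Tpm2, a tropomyosin that lies along the actin filament, had 3.87, 14.1 and 38.6 in Acta2-high cells, and a median of 0.943 in Acta2-low cells. All 4 genes were detected in all 296 Acta2-high cells, and the summed ratios were 14.3 for Tagln, 11.7 for Tpm2 and 9.94 for Myl9. The Acta2-low level was close to what other cell types carried: endothelial cells, which should lack Acta2, had a median of 1.87 Acta2 UMIs per 10000 at a median depth of 4362 UMIs.

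Outside the score, the 3 genes with the highest log2 ratios after adding 5 CPM, Cnn1, Actg2 and Myh11, belonged to the smooth muscle contractile apparatus. Calponin 1 (Cnn1, chr9:22099216-22109630, plus strand), which binds actin and slows the myosin motor, had 123 CPM in Acta2-high cells and 0.919 CPM in Acta2-low cells, a ratio of 133 (87.7 to 213). Actg2 (chr6:83512905-83536265, minus strand), the gamma-actin of smooth muscle, had 143 and 2.72 CPM, a ratio of 52.5 (40.7 to 68.7). Myh11 (chr16:14194535-14291372, minus strand), the smooth muscle myosin heavy chain, had 88.2 CPM in Acta2-high and 2.24 CPM in Acta2-low cells, a ratio of 39.4 (29.6 to 53.4). Lmod1, leiomodin, which starts actin filaments in smooth muscle, had 34.1 CPM in Acta2-high and 1.56 CPM in Acta2-low cells.

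Of 25 contractile genes listed beside the score, 17 reached 10 CPM in either group. A gene below that in Acta2-low cells could enter only by being high in Acta2-high cells. The list was chosen with earlier results of these data known. After adding 5 CPM, 10 of the 17 stood at least 2-fold higher in Acta2-high cells and 0 stood 2-fold lower. Over all 8640 genes at 10 CPM, 1.41% passed 2-fold in the higher direction and 1.79% in the lower one. The median log2 ratio of the 17 was 1.46, against a median near 0 over all genes. It was 1.43 when cells were chosen on a random part of their UMIs and compared on the rest, and 0.67 with genes under 10 CPM included. The more widely expressed members differed less. Tpm1, another tropomyosin, had 3092 CPM in Acta2-high and 829 CPM in Acta2-low cells (ratio 3.73), Cnn2, a calponin of non-muscle cells, 1036 and 303 CPM (3.41), and Mylk, the kinase that switches on myosin light chain, 574 and 205 CPM (2.80).

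Csrp1, a LIM protein on actin bundles, had 921 CPM in Acta2-high and 310 CPM in Acta2-low cells. Aoc3, an amine oxidase of vascular smooth muscle, had 30.0 and 4.35 CPM. Some contractile genes hardly differed: caldesmon (Cald1) had 1299 CPM in Acta2-high and 937 CPM in Acta2-low cells, and desmin (Des), the intermediate filament of muscle, 205 and 206 CPM. The 8 genes below 10 CPM in both groups were Actc1, Acta1, Myocd, Smtnl2, Ldb3, Pcp4l1, Synpo2 and Sncg. Myocd, the master cofactor of smooth muscle genes, had 2.35 CPM in Acta2-high and 1.64 CPM in Acta2-low cells, which is too few counts to tell them apart.

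**Figure D2:**
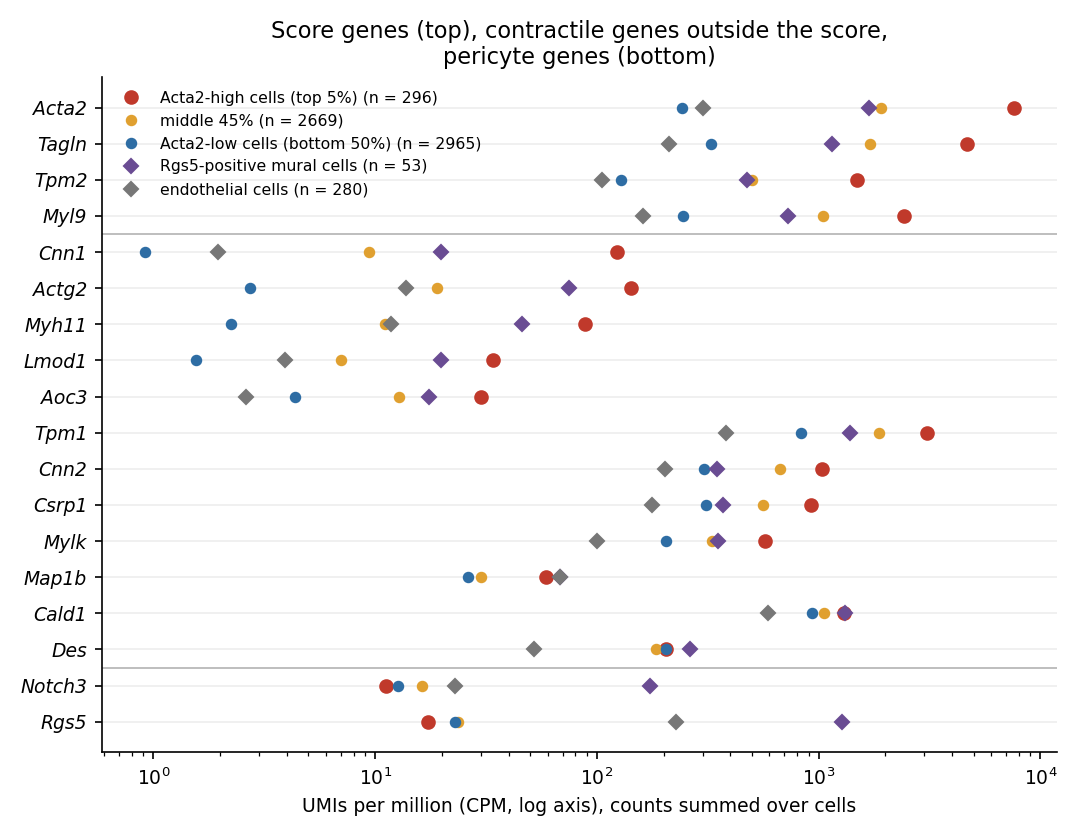
Levels of the 4 score genes, 12 contractile genes outside the score and 2 pericyte genes, in CPM on a log axis, each point the sum over 1 group of cells in the library labelled sham. Acta2-high cells lie right of Acta2-low cells for every score gene and for Cnn1, Actg2, Myh11 and Lmod1, whereas Notch3 and Rgs5 are high in mural cells and not in Acta2-high cells.

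At the level of single cells the smooth muscle genes were patchy. Cnn1 was found in 37.5% of Acta2-high cells and 0.776% of Acta2-low cells, Actg2 in 37.8% and 2.23%, and Myh11 in 41.9% and 1.65%. Endothelial cells had a Cnn1 UMI in 1.07% of cells at their median of 4362 UMIs. At least 1 of the 3 genes was found in 198 of 296 Acta2-high cells, or 66.9% (exact 95% interval 61.2 to 72.2), against 136 of 2965 Acta2-low cells, or 4.59% (3.86 to 5.40), and 4.29% of endothelial cells. The Acta2-low and endothelial shares were close, but at unlike median depths of 8426 and 4362 UMIs. The 3 genes have the highest ratios between these same cells, so the high share in Acta2-high cells adds no separate support. With each cell thinned to 2000 UMIs the shares were 36.5% of Acta2-high cells, 0.949% of Acta2-low cells and 2.15% of endothelial cells.

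All 3 of Cnn1, Myh11 and Actg2 were found together in 40 Acta2-high cells, or 13.5%, and in 0 of 2965 Acta2-low cells. The 3 genes tended to share cells. Among Acta2-high cells Myh11 was found in 59.5% of those with a Cnn1 UMI and in 31.4% of those without, and Cnn1 in 60.7% of those with an Actg2 UMI and in 23.4% of those without. The third pair was weaker, with Myh11 in 49.1% of cells with an Actg2 UMI and 37.5% of those without. Depth differs between cells and moves these shares too.

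The share climbed with the score even among the Acta2-high cells and did not start at the limit. At least 1 of the 3 genes was found in 51.0% of the 100 cells next below the limit, in 56.1% of the 98 lowest-scoring Acta2-high cells, in 60.6% of the 99 in between and in 83.8% of the 99 highest. Median depths of these groups were alike, at 11215, 11310, 11001 and 11610 UMIs. Cnn1 ran 32.3, 45.5, 68.1 and 250 CPM over the same groups, and Myh11 30.6, 48.1, 63.5 and 151 CPM. By contrast Alx1, a homeobox factor described below, stayed level, at 818, 832, 831 and 823 CPM.

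**Figure D3:**
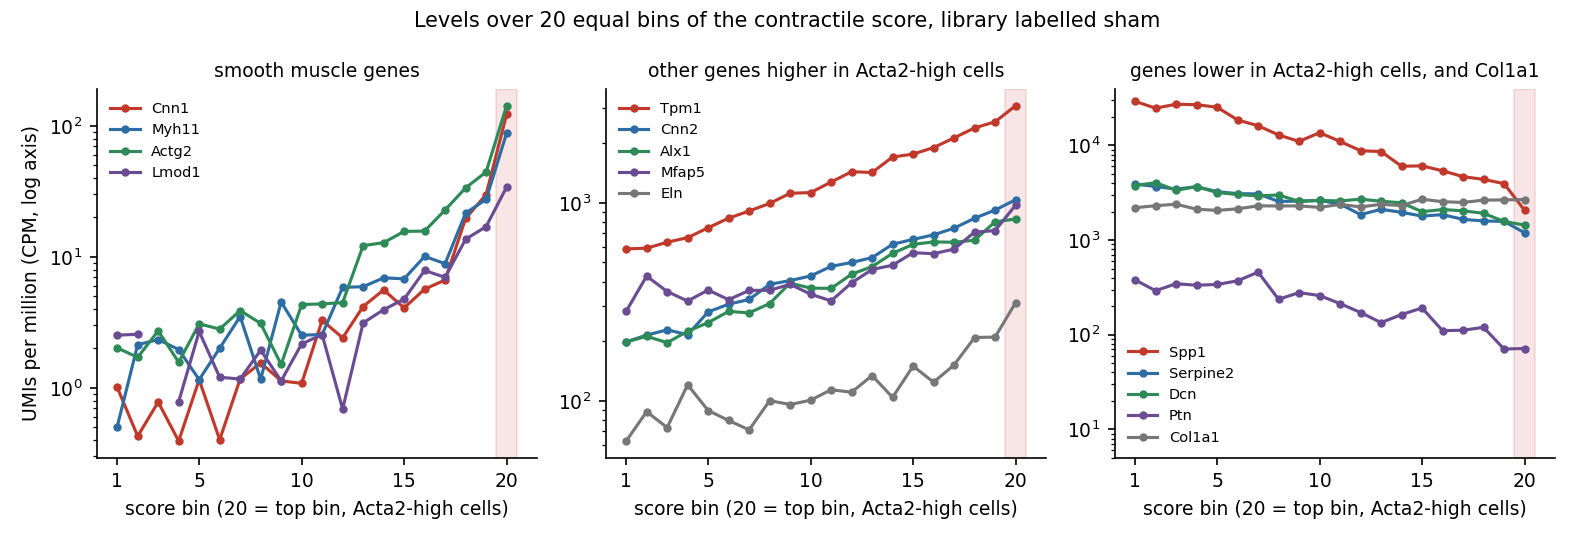
Levels over 20 equal bins of the contractile score from lowest to highest (x axis) in CPM on log axes, library labelled sham, with the Acta2-high cells shaded as the last bin. The smooth muscle genes climb steeply in the last bins (a bin at 0 is not drawn), Tpm1, Cnn2, Alx1, Mfap5 and Eln climb gradually, and Spp1, Serpine2, Dcn and Ptn decline while Col1a1 stays near level.

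The wider actin cytoskeleton went the same way by smaller ratios. Of 32 listed genes of actin filaments and focal adhesions, 30 were measured at 10 CPM, 9 were at least 2-fold higher in Acta2-high cells and 0 lower, with a median log2 ratio of 0.57. Actb, the actin of all cells, had 6989 CPM in Acta2-high and 2062 CPM in Acta2-low cells, and Palld, a scaffold of stress fibres, 589 and 219 CPM. Pxn (paxillin), an adaptor of focal adhesions, was slightly lower, at 13.2 and 18.4 CPM. In single cells these genes took a median of 4.15% of the UMIs in Acta2-high cells and 2.39% in Acta2-low cells. Actin genes share long stretches of sequence, so the division of reads between Acta2, Actg2, Actb and their relatives is uncertain.

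Transcripts of the factors known to switch contractile genes on did not stand out as a group. Over all 8640 genes 1.41% were at least 2-fold higher and 1.79% lower, so a count of 0 in lists this short is near that share. The activity of the factors was not measured. Of 25 listed serum response factor, myocardin-family and related genes, 18 were measured, 0 were at least 2-fold higher and 1 lower, with a median log2 ratio of -0.07. The lower gene was Mef2c, a muscle transcription factor, with 11.5 CPM in Acta2-high and 38.6 CPM in Acta2-low cells. Tead1, the partner of YAP, had 57.9 and 33.3 CPM. Of 10 measured YAP and TEAD target genes, Crim1 alone was at least 2-fold higher, with 62.9 CPM in Acta2-high and 22.9 CPM in Acta2-low cells, and Cyr61 (Ccn1), a matricellular protein, had 1882 and 1002 CPM. TGF-beta genes, whose pathway drives myofibroblasts, had 0 of 19 at least 2-fold higher and 2 lower. Tgfb3 had 49.4 CPM in Acta2-high and 26.6 CPM in Acta2-low cells, whereas Itgb5, an integrin subunit that binds vitronectin, had 148 and 314 CPM.

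Whether the label fibroblast holds was checked against the vessel wall. Of 12 smooth muscle markers 7 were measured at 10 CPM, and 5 of these were at least 2-fold higher in Acta2-high cells, with a median log2 ratio of 2.58. All 5 reached 10 CPM through the Acta2-high cells alone, so that they had to differ, and the median was 0.67 with genes under 10 CPM included. Cnn1, Myh11, Actg2 and Lmod1 stand in this list and in the contractile one. Kcnmb1, a potassium channel subunit of smooth muscle, had 29.7 CPM in Acta2-high and 6.15 CPM in Acta2-low cells. Of 12 pericyte markers 7 were measured and 0 differed 2-fold either way, with a median of -0.13. Rgs5, the usual pericyte marker, had 17.3 CPM in Acta2-high and 22.8 CPM in Acta2-low cells, and Notch3, the receptor of mural cells, 11.2 and 12.7 CPM. Rgs5 was one of the exclusion genes, so its low level was partly set by the rule, whereas Notch3 was not.

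Of the 16 pericyte, smooth muscle and renin marker genes, 2 or more were found in 62.5% of Acta2-high cells (56.7 to 68.0) and in 13.0% of Acta2-low cells. Of Rgs5 and the 7 pericyte genes alone, 2 or more were found in 11.1% of Acta2-high and 8.26% of Acta2-low cells. With every cell holding 2 or more of the 16 genes removed before ranking, the median log2 ratio of contractile genes was 0.66 in place of 1.46, and the removed genes Cnn1, Myh11, Actg2 and Lmod1 stand in that list themselves. Pdgfra, at 257 CPM in Acta2-high and 284 CPM in Acta2-low cells, and collagen were conditions of entry for every ranked cell, so their presence does not check the label. The name is used here for the rule and not for a lineage. A doublet score built from pairs of genes that rarely share a cell marked 24.3% of Acta2-high cells and 7.18% of Acta2-low cells. The score adds up pairs found in a cell, so it can rise with the number of genes found. That number had medians of 3581.5 in Acta2-high and 3005 in Acta2-low cells, and the shares are not doublet rates. With all marked cells removed before ranking, the median log2 ratio of contractile genes was 1.45.

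The library also held 53 mural cells, defined by Rgs5, at least 2 of the 7 pericyte genes and no Pdgfra, with a median depth of 7051 UMIs. Against them Acta2-high cells were higher in Acta2, with 7571 and 1688 CPM, and in Cnn1, with 123 and 19.8 CPM. Acta2 ranked the Acta2-high cells and not the mural cells, so its higher level was set by the rule, and Cnn1 climbed with the same score. Myh11 differed less, with 88.2 CPM in Acta2-high and 46.1 CPM in mural cells. Of 12 measured pericyte markers 11 were at least 2-fold lower in Acta2-high cells, where 7.76% of all 9282 genes were, but these genes chose the mural cells. Of 14 elastic fibre genes, which were not used to choose the mural cells, 6 were at least 2-fold higher in Acta2-high cells (3.85% of all genes) and 0 lower. Among them was Eln, elastin, at 313 CPM in Acta2-high and 57.1 CPM in mural cells. Eln climbed with the score as well, from 62.6 CPM in the lowest of 20 score bins to 313 CPM in the highest. Its higher level was thus tied to the ranking too. Resting fibroblast genes were mixed, with 4 of 15 higher and 3 lower, and fibroblast lineage factors had 1 of 16 higher and 1 lower. Pdgfra, which was asked of Acta2-high cells and barred from mural cells, fixes part of this comparison.

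Ren1, renin, was among the 12 highest named genes but rested on 1 cell. It had 87.0 CPM in Acta2-high and 9.63 CPM in Acta2-low cells. One Acta2-high cell held 235 Ren1 UMIs, 79.4% of the total, and without it the level was 18.0 CPM. A Ren1 UMI was found in 9.46% of Acta2-high and 6.61% of Acta2-low cells. Mural cells, where juxtaglomerular renin cells belong, had 5217 CPM.

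A set of genes with no known place in the contractile machinery was higher as well. Igfbp2, which binds insulin-like growth factors, had 158 CPM in Acta2-high and 8.35 CPM in Acta2-low cells (ratio 18.9, 16.1 to 22.3), in 27.7% and 4.45% of cells. Nppc, the C-type natriuretic peptide that relaxes vessels, had 118 and 7.19 CPM (16.4, 13.8 to 19.7), in 15.9% and 3.58% of cells, and 92.2 CPM in Acta2-high cells without the 1 cell with 22.4% of its UMIs. Cartpt, a neuropeptide precursor, had 74.4 CPM in Acta2-high and 3.95 CPM in Acta2-low cells. These 3 genes were each found in a minority of Acta2-high cells.

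More evenly spread was Alx1, a homeobox factor of mesenchyme, found in 91.6% of Acta2-high and 58.9% of Acta2-low cells, with 829 and 274 CPM (ratio 3.03, 2.90 to 3.16). Dio2, which activates thyroid hormone, had 77.9 CPM in Acta2-high and 11.1 CPM in Acta2-low cells. Prom1, the membrane protein prominin, had 97.0 and 17.1 CPM, and Ramp1, a subunit of the receptor for the vasodilator CGRP, 98.5 and 18.2 CPM. Fndc1 and the membrane glycoprotein gene Gpm6a followed, at 72.6 and 72.9 CPM in Acta2-high cells and 13.7 and 14.2 CPM in Acta2-low cells.

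Nppc, Gpm6a and Alx1 mark a fibroblast set that was listed from earlier results on the same cells, and 5 of its 8 genes were at least 2-fold higher in Acta2-high cells, with a median log2 ratio of 1.23. The overlap of cells was partial. Of the 296 cells with the highest score for Nppc, Gpm6a and Alx1, 40 were Acta2-high cells, 13.5% of each set, where 4.99% of all ranked cells fall in a top set of this size. The highest sets for Col1a1, Col1a2 and Col3a1 and for Npr3, Serpine2 and Nkd2 shared 7 and 1 cells with the Acta2-high cells, 2.36% and 0.338% of each set.

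Matrix genes were mixed. Elastic fibre genes leaned slightly higher, with 3 of 15 at least 2-fold higher, 1 lower and a median log2 ratio of 0.32. Of the 15, 10 were above 0 and 5 below, and the median ran from 0.011 to 0.376 over the alternatives in processing. Ltbp2, an elastic microfibril gene counted in another set below, was lower, with a log2 ratio of -1.64. Eln, the core of the elastic fibre, had 313 CPM in Acta2-high and 88.9 CPM in Acta2-low cells (ratio 3.52, 3.27 to 3.79), and Mfap5, a microfibril protein, 972 and 354 CPM (2.75, 2.64 to 2.86). Mfap5 was found in 88.2% of Acta2-high and 62.8% of Acta2-low cells, and in 32.9% of endothelial cells. Both climbed within the Acta2-high cells: Eln had 166 CPM in the 100 cells next below the limit, then 187, 294 and 456 CPM from the lowest-scoring to the highest-scoring Acta2-high cells. Fbn2, a fibrillin of developing tissue, went the other way, with 5.29 CPM in Acta2-high and 18.1 CPM in Acta2-low cells.

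Scar collagens moved little. Col1a1 had 2674 CPM in Acta2-high and 2229 CPM in Acta2-low cells (ratio 1.20, 1.17 to 1.23), Col3a1 4176 and 3334 CPM (1.25, 1.23 to 1.27), and Col1a2 2654 and 2536 CPM (1.05, 1.02 to 1.07). In single cells Col1a1 had medians of 22.6 UMIs per 10000 in Acta2-high and 17.0 in Acta2-low cells. These genes were part of the entry rule, which asked only for detection. Of 25 measured scar matrix genes, Col12a1 alone was at least 2-fold higher, with 948 and 431 CPM, Timp1 and Spp1 were lower, and the median log2 ratio was 0.12. Postn, periostin, a myofibroblast matrix protein, had 121 CPM in Acta2-high and 59.9 CPM in Acta2-low cells. Dcn, decorin, a small proteoglycan on collagen fibrils, was lower, with 1438 and 3184 CPM.

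Spp1, osteopontin, was the most abundant gene that was lower in Acta2-high cells. It had 4.70, 14.0 and 490 UMIs per 10000 (lowest, median, highest) in Acta2-high cells, against 0, 33.1 and 4036 in Acta2-low cells, which overlap. Summed, it had 2066 CPM in Acta2-high and 20237 CPM in Acta2-low cells, a ratio of 0.102 (0.0997 to 0.105). Every one of the 280 endothelial cells also held an Spp1 UMI, with a median of 19.1 per 10000, so the Acta2-high median lay below the level found in a cell type that should lack it. The highest Acta2-high cell stood far above it, and Spp1 had 3759 CPM in the 100 cells next below the limit and 2586, 1716 and 1868 CPM from the lowest-scoring to the highest-scoring Acta2-high cells. The part of free RNA in these levels was not tested.

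Genes of resting fibroblasts were split. Of 18 measured, 8 were at least 2-fold lower and 2 higher, with a median log2 ratio of -0.78. The list as a whole went the other way, with Mfap5 and Dpt higher: it took a median of 0.384% of a cell's UMIs in Acta2-high cells and 0.277% in Acta2-low cells. Cd34, a surface protein of adventitial fibroblasts, had 3.23 CPM in Acta2-high and 63.7 CPM in Acta2-low cells, and was found in 3.38% and 19.5% of cells. Pi16, a marker of adventitial fibroblasts, had 20.3 and 138 CPM. The 2 genes that were higher were Mfap5 and Dpt (dermatopontin, a collagen-binding protein), the second with 385 and 159 CPM. Apod, a lipid carrier, had 2.65 and 76.8 CPM, but 72.3% of the Acta2-low counts came from 1 cell and 21.3 CPM were left without it.

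Inflammatory and complement genes were lower too. Of 20 measured, 8 were at least 2-fold lower and 0 higher, with a median log2 ratio of -0.82. C3, the central complement protein, had 10.6 CPM in Acta2-high and 64.7 CPM in Acta2-low cells, and Ptx3, a pattern-recognition protein, 1.18 and 26.0 CPM. C3 was found in similar shares of cells, 11.8% and 11.9%, although Acta2-high cells were deeper (medians 11221 and 8426 UMIs). At 2000 UMIs per cell C3 was in 2.36% of Acta2-high (0.956 to 4.81) and 5.42% of Acta2-low cells (4.63 to 6.30). At full depth the highest single cells held 1.68 UMIs of C3 per 10000 among Acta2-high and 52.6 among Acta2-low cells. Cxcl12, a chemokine of stromal cells, was higher, with 746 and 399 CPM. Ccl2 had 165 CPM in Acta2-high and 85.7 CPM in Acta2-low cells, of which 1 Acta2-high cell gave 43.4%, leaving 93.7 CPM without it.

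Other genes lower in Acta2-high cells came from no one list. Ptn, a heparin-binding growth factor, had 71.4 CPM in Acta2-high and 328 CPM in Acta2-low cells, Cp, the copper carrier ceruloplasmin, 65.8 and 329 CPM, and Hp, haptoglobin, 8.52 and 52.1 CPM. Sfrp4, a WNT antagonist, had 12.1 and 67.5 CPM and the non-coding RNA Meg3 9.55 and 98.9 CPM. Haemoglobin topped the lower genes, with 2.06 and 120 CPM of Hba-a1 and 8.08 and 176 CPM of Hbb-bs. One Acta2-low cell held 94.8% and 92.7% of these Acta2-low counts, and near-identical copies of both genes share reads.

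Genes of 2 other stromal sets were lower. Of 7 measured genes in the Npr3, Serpine2 and Nkd2 set 3 were at least 2-fold lower, with a median log2 ratio of -0.65. Serpine2, a protease inhibitor, had 1194 CPM in Acta2-high and 3158 CPM in Acta2-low cells, and Ltbp2, a protein of elastic microfibrils, 17.0 and 63.7 CPM. Nkd2, an inhibitor of WNT signalling, had 125 and 199 CPM, and its relative Nkd1 365 and 203 CPM. Of 9 genes in the Clca3a1 and Agtr1a set 2 were lower and 0 higher, with 13.5 CPM of Clca3a1 in Acta2-high and 67.9 CPM in Acta2-low cells.

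Immediate early genes, which dissociation as well as signalling can switch on, were lower by less than 2-fold. All 17 measured were below 0 on the log2 scale with a median of -0.58, and 8 were at least 1.5-fold lower, where 5.74% of all genes were. Klf4, which represses smooth muscle genes in cultured vessel cells, had 153 CPM in Acta2-high and 307 CPM in Acta2-low cells, and Dusp1, a MAP kinase phosphatase, 1022 and 1142 CPM. In single cells these genes took medians of 0.985% of the UMIs in Acta2-high and 1.53% in Acta2-low cells. Mitochondrial respiration genes leaned slightly higher, with 21 of 22 above 0, a median of 0.34 and 0 at least 2-fold apart, and glycolysis genes had a median of 0.31.

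**Figure D4:**
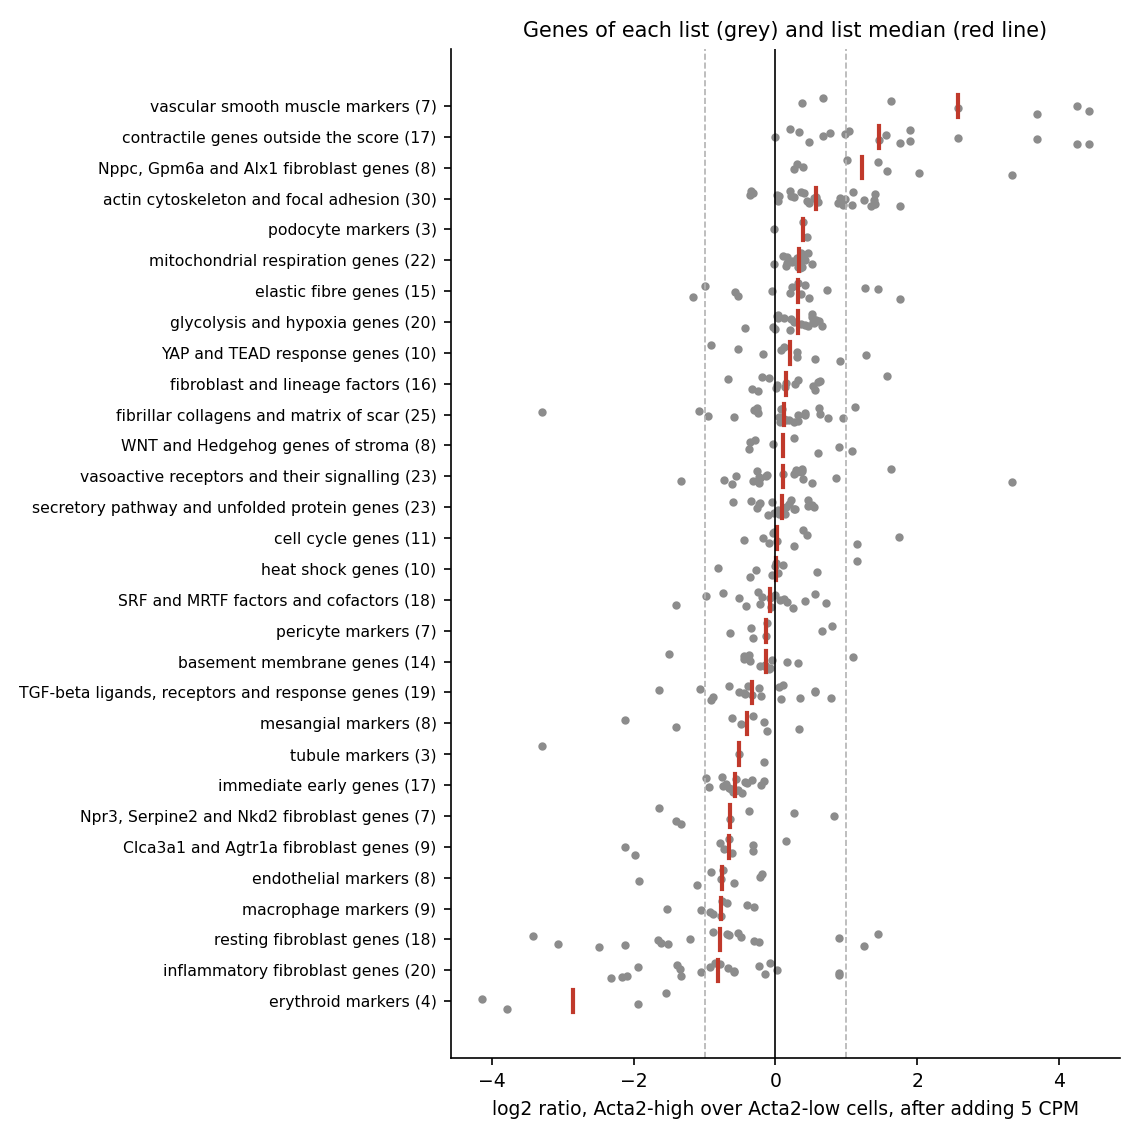
Log2 ratio of Acta2-high over Acta2-low cells after adding 5 CPM (x axis) for each gene list with at least 3 measured genes (y axis, number measured in brackets), grey points as genes and red lines as medians. Among these lists smooth muscle and contractile genes have the highest medians, resting, inflammatory and erythroid genes the lowest, and pericyte markers near 0. Most Hba-a1 and Hbb-bs counts of the Acta2-low cells came from a single cell.

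Smaller groups gave single genes. Wnt5a, a non-canonical WNT ligand, had 78.2 CPM in Acta2-high and 34.4 CPM in Acta2-low cells, the sole gene of 8 measured WNT and Hedgehog genes at least 2-fold apart. Nid2, a linker of basement membranes, had 57.3 and 24.1 CPM, and Sparcl1, a matricellular protein, 313 and 896 CPM. Cryab, a small heat shock protein that protects desmin and actin filaments, had 487 and 217 CPM. Rrm2, a subunit of ribonucleotide reductase used in S phase, had 41.6 CPM in Acta2-high and 8.95 CPM in Acta2-low cells, and Ccnb2, a mitotic cyclin, 20.3 and 6.35 CPM, the sole 2 of 11 measured cell cycle genes at least 2-fold apart. Among cells with Y-linked UMIs alone Ccnb2 had a log2 ratio of -0.13 in place of 1.16. Vasoactive receptor and signalling genes had 2 of 23 higher, Nppc and Kcnmb1, and 1 lower, Npr3, the clearance receptor of natriuretic peptides, with 21.2 and 60.9 CPM.

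Markers of most other cells were lower in Acta2-high cells. Summed over each list, endothelial markers had 443 CPM in Acta2-high and 715 CPM in Acta2-low cells, macrophage markers 210 and 442 CPM, and erythroid markers 12.1 and 326 CPM. The erythroid sum of Acta2-low cells rests largely on the single cell that held most of their Hba-a1 and Hbb-bs counts. Tubule markers had 2140 and 20351 CPM, nearly all of it Spp1. Podocyte markers summed to 274 CPM in Acta2-high and 223 CPM in Acta2-low cells, and 0 of 3 measured were 2-fold apart, with a median log2 ratio of 0.39. Of 5 Schwann and neural markers 0 were measured at 10 CPM. The exclusion genes Pecam1, Ptprc, Tyrobp, Epcam and Umod stand in these lists, so the low levels are partly set by the rule.

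The library labelled sham held cells of both sexes. Xist, the RNA of the inactive X in females, was found without Y-linked UMIs in 48.6% of Acta2-high and 60.3% of Acta2-low cells. Y-linked UMIs without Xist were found in 23.6% and 16.2% of cells, and both together in 18.2% and 13.9%. The part of free RNA and doublets in these shares was not tested. Among cells with Y-linked UMIs alone, ranked anew, the median log2 ratio of contractile genes was 1.60 and 78.8% of the top cells had 2 or more mural marker genes. Among cells with Xist alone these values were 1.47 and 54.7%.

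Among the Acta2-high cells, the 198 with a UMI of Cnn1, Myh11 or Actg2 were compared with the 98 without. Median depths were 11572 and 10751 UMIs, and median scores 3.47 and 3.36. Lmod1, which took no part in the split, had 41.5 CPM in cells with such a UMI and 17.3 CPM in cells without. Nppc had 147 and 51.9 CPM (ratio 2.84, 2.13 to 3.86), Mfap5 1119 and 640 CPM (1.75, 1.61 to 1.91), and Ptn 46.6 and 128 CPM. The first Nppc value includes the single cell with the most Nppc UMIs described above, and the ratio was not taken without it. Alx1 and Tpm1 were alike, with 834 and 818 CPM of Alx1 and 3106 and 3061 CPM of Tpm1. Rgs5 had 16.9 CPM in cells with such a UMI and 18.3 CPM in cells without.

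The same rule in the library labelled UUO gave 19 of 395 Pdgfra-positive fibroblasts as its top 5% and 197 as its bottom 50%. Their median depths were 6107 and 7406 UMIs. The limit fell at a score of 2.49 there, below the 3.22 of the library labelled sham. Acta2 had 2281 CPM in the top and 86.9 CPM in the bottom cells. Of 15 measured contractile genes outside the score 11 were at least 2-fold higher and 1 lower, with a median log2 ratio of 1.68. At this depth and cell number 12.4% of all 9866 genes were at least 2-fold higher and 14.6% lower, and the counts are read against these shares. Vessel-wall markers were found in more of the top cells there. Of the 16 pericyte, smooth muscle and renin genes, 2 or more were held by 84.2% of the top and 33.5% of the bottom cells. Of Rgs5 and the 7 pericyte genes, 2 or more were held by 31.6% and 14.2%. Smooth muscle markers had 6 of 7, mesangial markers 4 of 8 and pericyte markers 3 of 9 at least 2-fold higher, with 1, 0 and 2 lower. A gene could reach 10 CPM on a few UMIs of the 19 top cells alone and then had to be higher. These counts therefore add no separate support, and the contractile count above shares this limit. In the library labelled sham, mesangial markers had 0 of 8 at least 2-fold higher and 2 lower. The part of vessel-wall markers in the contractile values was not tested.

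Contractile genes with wide expression were higher in the top cells labelled UUO. Tpm1 had 1079 CPM in the top and 195 CPM in the bottom cells labelled UUO (ratio 5.54, 4.52 to 6.76), Csrp1 869 and 171 CPM, and Mylk 507 and 114 CPM. Des had 268 and 65.8 CPM and Cald1 1202 and 371 CPM, both of which hardly differed in the library labelled sham. Cnn1 had 7.24 CPM from 1 UMI in the top and 7.03 CPM in the bottom cells, and Actg2 0 in both, and 4 of 19 top cells, 21.1%, held a UMI of Cnn1, Myh11 or Actg2. Whether the libraries differ in this was not tested.

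Of 25 measured scar matrix genes 12 were at least 2-fold lower and 1 higher in the top cells labelled UUO. Dcn had 6176 CPM in the top and 17887 CPM in the bottom cells, Col1a1 659 and 1745 CPM, and Col3a1 956 and 2430 CPM. Eln had 79.6 and 218 CPM and Mfap5 246 and 828 CPM, the opposite direction to the library labelled sham. Elastic fibre genes as a list had 6 of 14 lower and 2 higher, with sums of 7624 CPM in the top and 5652 CPM in the bottom cells, and basement membrane genes 6 of 15 lower and 4 higher. Postn was found in no top cell, where 3 counts would be 21.7 CPM, against 197 CPM in the bottom cells, at least 9.09-fold lower by counting error alone. That bound pools the UMIs of the top cells and leaves out differences between cells. Of 17 immediate early genes 14 were at least 2-fold lower, and of 19 resting fibroblast genes 15.

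**Figure D5:**
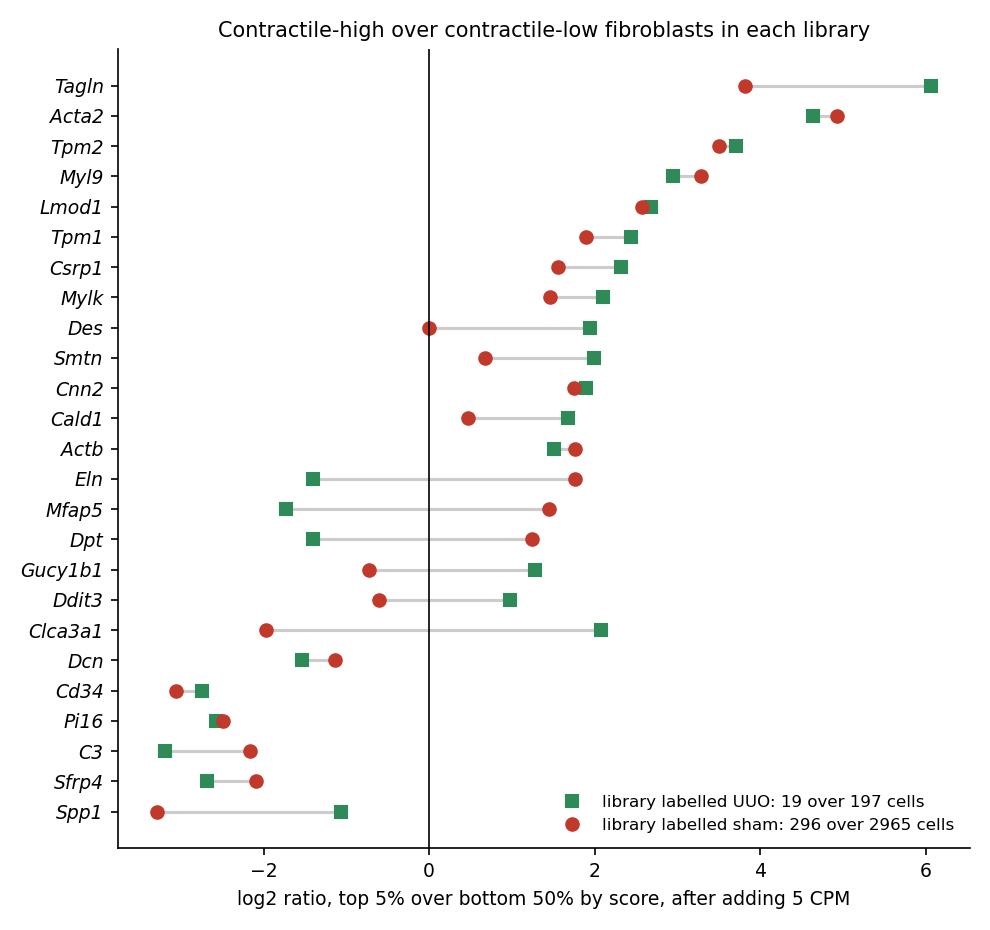
Log2 ratio of the top 5% over the bottom 50% by score after adding 5 CPM (x axis) for named genes (y axis) in the library labelled UUO and the library labelled sham, each point the ratio of summed CPM in 1 library. Tpm1, Csrp1 and Mylk lie right of 0 in both libraries, and Eln, Mfap5 and Dpt right of 0 in the library labelled sham and left of 0 in the library labelled UUO.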

How the data were processed

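Kidney cells of 2 libraries, 1 labelled UUO and 1 labelled sham, were grouped by the labels alone. The deposited matrices hold an expected count (estimated count) of UMIs for each cell and each of 53698 gene entries, made by the authors without normalisation. The submitters' processing notes name alevin, Salmon 0.13.1 and mm10. A UMI that fits several genes is divided among them by alevin. Taking 1e-06 as the tolerance, 91.2% of the values above 0 in the library labelled UUO and 92.3% in the library labelled sham were whole. The step that picked the deposited barcodes is not given in the sources.

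The cells were ranked by the rule above, in Python 3.11.15 with NumPy 2.4.6, SciPy 1.17.1, pandas 2.3.3 and matplotlib 3.10.9. The members and the 32 gene lists were chosen with earlier results of these data known, and 478 of 478 list symbols were matched, 4 by an older symbol. Counts were summed over the cells of a group and scaled to CPM. Ratios carry exact conditional binomial 95% intervals and shares exact Clopper-Pearson intervals, which cover counting error only. Log2 ratios and the counts of genes 2-fold apart were taken after adding 5 CPM, over genes with at least 10 CPM in either group and without the score genes. A count of 0 was set against 3 counts. Genes were named as the 12 highest and 12 lowest log2 ratios with at least 50 CPM and 50 counts, the 2 highest and 2 lowest of each list, all contractile, pericyte, smooth muscle and renin genes, and a few genes fixed by name. Mitochondrial, ribosomal and unnamed genes were left out. Endothelial cells had at least 4 of 6 markers. Doublets were left in: cells with the highest co-expression scores, 0.8% per 1000 cells, were removed as an alternative. Gene positions are from GENCODE M21, found for 161 of 162 named entries. The ratios and counts were tested on simulated data before use. Alternatives covered scaling, filters, added CPM, thinning to 2000 UMIs, a random split of each cell's UMIs, score genes, limits, doublets, marker genes and sex.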

Additional observations from a re-analysis of the deposited data

Results flagged for a closer look

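For 7 named genes the top and bottom cells by contractile score differed by at least 1.5-fold in opposite directions in the library labelled UUO (19 and 197 cells) and the library labelled sham (296 and 2965 cells), with each interval for counting error on its own side of no difference. The difference between libraries was not tested, since each has 1 library. On the log2 scale after adding 5 CPM, Eln was -1.40 in the library labelled UUO and 1.76 in the library labelled sham, Mfap5 -1.73 and 1.45, and Dpt -1.41 and 1.25. Postn was -5.34 in the library labelled UUO and 0.95 in the library labelled sham. It had 0 counts in the top cells labelled UUO, so the size of that ratio depends on the added 5 CPM. The other direction was seen for Clca3a1, a chloride channel regulator gene, at 2.08 in the library labelled UUO and -1.98 in the library labelled sham. Gucy1b1, a subunit of the nitric oxide receptor guanylate cyclase, was 1.28 and -0.73, and Ddit3, a transcription factor of the unfolded protein response, 0.98 and -0.60. The top cells labelled UUO held between 0 and 34 counts of each of these genes.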

How the results depend on the processing

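Of 26 alternatives in the library labelled sham, 4 were added after seeing the data. The count of genes at least 2-fold higher (122) was 73 with a minimum of 50 CPM, 62 with 20 CPM added, 47 against all other ranked cells, 20 against the middle cells (added) and 190 in cells with Y-linked UMIs alone. The count of lower genes (155) was 72, 49, 71, 12 and 336 under these, 235 with 1 CPM added and 305 after thinning. The contractile median (1.46) was 1.38 with equal weight per cell, 1.08 with a total without mitochondrial, ribosomal and score genes, which let 19 rather than 17 genes pass, 0.67 without a filter, 1.04 with 20 CPM added, 1.16 after thinning, 1.25 with none of the exclusion genes, 1.28 for the top 10%, 1.06 against all other cells, 0.74 against the middle cells, 1.38 without Myl9 in the score, 0.66 without cells of 2 or more mural marker genes, and 1.60 in cells with Y-linked UMIs alone. The share of Acta2-high cells with 2 or more mural marker genes (62.5%) was 16.3% after thinning and 41.5% with cells chosen and compared on separate UMIs, both with fewer UMIs per cell, 55.4% with none of the exclusion genes, 54.8% for the top 10%, 75.4% for the top 2%, 54.7% in cells with Xist alone and 78.8% with Y-linked UMIs alone. In the library labelled UUO the contractile median (1.68) was 1.31 without a filter. Ren1 reversed, with a log2 ratio of -0.53 against 2.65, without cells of 2 or more mural marker genes, a list that holds Ren1. Ccnb2 reversed to -0.13 against 1.16 in cells with Y-linked UMIs alone, and Hbb-bt to 0.053 against -1.94 when set against the middle cells. Beyond what a setting's construction shows, the cause was not tested. Of 158 named genes outside the score 62 were at least 2-fold apart; of these, 58 kept 1 direction in every alternative (Ren1, Ccnb2, Hbb-bt and Pecam1, an exclusion gene, did not) and 14 stayed 2-fold apart in all. Of 31 list medians 24 kept their sign in every alternative that gave a value; those of pericyte, podocyte, YAP and TEAD, secretory, WNT and Hedgehog, heat shock and cell cycle genes did not. No paired analysis was possible because each group has 1 library. Depth limits the smooth muscle shares, and 19 cells limit every value labelled UUO.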
